A study of Arabidopsis thaliana with 6 samples.

Results

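The genes described here encode respiratory enzymes that move electrons without pumping protons, an uncoupling protein, and the plastid relative of the alternative oxidase. They are the alternative oxidase genes AOX1A (AT3G22370), AOX1B (AT3G22360), AOX1C (AT3G27620), AOX1D (AT1G32350) and AOX2 (AT5G64210), the type II NAD(P)H dehydrogenase genes NDA1 (AT1G07180), NDA2 (AT2G29990) and NDB2 (AT4G05020), the uncoupling protein gene UCP1 (AT3G54110), and the plastid terminal oxidase gene PTOX (AT4G22260), also called IMMUTANS. They were selected by locus code and function, with earlier results of these data known. All 10 have a probe set of their own among the 22746 non-control probe sets of the array, and none of these 10 probe sets carries the suffix that marks probes shared between transcripts.

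Leaves of Arabidopsis thaliana were compared on Affymetrix ATH1 arrays, 3 from the essp3 mutant and 3 from the wild type. The mutant is impaired in BRAHMA, an ATPase that remodels chromatin as part of SWI/SNF complexes. The labels name its allele both brm5 and brm-6 and do not give the lesion. The wild type is the ProβCG:GUS line, in which a seed storage protein promoter drives the β-glucuronidase reporter, and the labels name the reporter for that group only. In both groups the plates had stood 3 days in the cold, and seedlings were 2 weeks old, on agar with 1.5% sucrose. Days had 16 h of light at 22 °C and 8 h of dark at 20 °C. The labels call the 3 samples of a group biological replicates. No source used here gives the hour of harvest.

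In plant mitochondria the alternative oxidase takes electrons from ubiquinol and passes them straight to oxygen, so that the proton-pumping cytochrome route is left out. Type II NAD(P)H dehydrogenases do the corresponding job at the entry side: they reduce ubiquinone without pumping protons, on the matrix face of the inner membrane in the NDA enzymes and on its outer face in the NDB enzymes. UCP1 lets protons back into the matrix. PTOX oxidises plastoquinol in thylakoids and is needed for carotenoid desaturation in young chloroplasts, and plants that lack it have green and white sectors. In Arabidopsis AOX1A is the isoform known to respond to mitochondrial dysfunction, NDB2 is often induced with it, and NDA1 is known as a gene regulated by light.

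Values are MAS5 signals on a linear scale, scaled by the authors so that every array averages 1000. MAS5 also gives each probe set a detection call on each array, and the number called Present ran from 12863 to 13761 per array. Levels of different probe sets cannot be compared with each other. The 6 detected genes were Present on all 6 arrays, and the other 4 on none. Changes are log2 fold changes, mutant minus wild type, from limma with Benjamini-Hochberg adjustment over the 13626 probe sets Present on at least 3 arrays, and a call is an adjusted p under 0.05. Leaf tissue was checked by markers. Of 7 leaf markers 4 had a probe set matched by locus. These were Present on all 6 arrays, and none passed the test between genotypes. The seed, meristem and pollen markers on the array had no Present call, while of 7 root markers only COBL9 had a single one, on a mutant array. The array names put all mutant arrays in one run and all wild-type arrays in another, so run and genotype cannot be told apart. The 25S ribosomal RNA control differed between those runs, with 371 to 483 on mutant arrays and 4149 to 7797 on wild-type arrays, and its part in the results below was not tested. In bulk leaf RNA, fewer cells of a type and less RNA per cell cannot be told apart either.

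NDA1 was higher in the mutant, and it was the only gene of the 6 to pass the test. The other 5 did not pass: AOX1A, NDB2 and PTOX had positive log2 fold changes between 0.38 and 0.48, and NDA2 and UCP1 lay near 0. So 1 of 6 was called, where 28.4% of all tested probe sets were called, 14.4% upward and 13.9% downward. That share is not above the background. The median log2 fold change of the 6 was 0.43, against -0.01 for all tested probe sets, and 5 of the 6 values were above 0, against 49.5% of all tested. The groups of arrays did not overlap for 2 of the 6 genes, NDA1 and NDB2, against 42.7% of all tested probe sets.

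**Figure D1:**
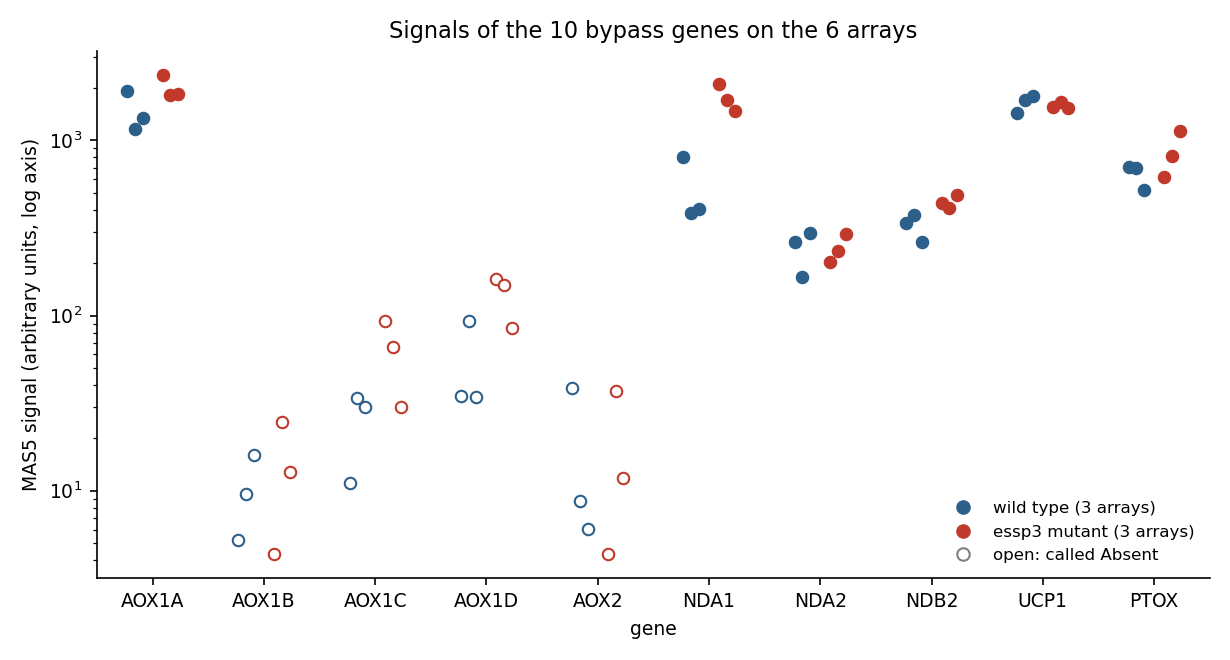
MAS5 signal (log axis) of the 10 bypass genes on each of 3 wild-type (blue) and 3 essp3 mutant (red) arrays; filled points were called Present and open points Absent. The NDA1 signals of the mutant, from 1479 to 2099, all lie above those of the wild type, from 386 to 807, and AOX1B, AOX1C, AOX1D and AOX2 have only open points.

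AOX1A, the oxidase isoform of stress responses, was Present on every array. Its signals were 2373, 1810 and 1839 on mutant replicates 1, 2 and 3, and 1913, 1158 and 1340 on wild-type replicates 1, 2 and 3. The groups overlapped, because wild-type replicate 1 read higher than mutant replicates 2 and 3; replicate 1 was the highest array in both groups. The mean was 2007 ± 317 in the mutant and 1471 ± 394 in wild type (SD, n = 3). This is a log2 fold change of 0.47 (SE 0.18), or 1.39-fold with a 95% interval of 1.06 to 1.81, and did not pass the test (adjusted p = 0.0660). An absolute change of this size or more was found in 32.8% of tested probe sets. The result depended on wild-type replicate 1: without it the log2 fold change was 0.68 and passed (adjusted p = 0.00555), while without any other array it did not pass (adjusted p from 0.0866 to 0.258). With array weights, which count the less regular arrays for less, it also passed (0.51, adjusted p = 0.0339).

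The other alternative oxidase genes were not called Present on any array. AOX1B, which lies next to AOX1A in the RefSeq gene order, read 4.36, 24.8 and 12.8 in the mutant and 5.23, 9.51 and 16.1 in wild type. AOX2, known as the seed isoform, read 4.36, 37.2 and 11.8 in the mutant and 38.5, 8.78 and 6.03 in wild type. In both genes the arrays of the groups were mixed with no order.

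AOX1C read 92.9, 66.1 and 30.1 in the mutant and 11.1, 33.7 and 30.2 in wild type. AOX1D, which is known to be induced when AOX1A is lost, read 161, 150 and 84.7 in the mutant and 34.6, 92.9 and 34.2 in wild type. For both genes replicates 1 and 2 of the mutant read above every wild-type array, and replicate 3 did not. The lowest signal called Present on an array ranged from 26.3 to 49.2, so a signal above that level does not by itself give a Present call. No fold is given for these 4 genes, since both groups lacked a Present call. In the authors' deposited table their ratios of mutant to wild-type means were 1.36 (AOX1B), 2.52 (AOX1C), 2.45 (AOX1D) and 1.00 (AOX2), and the unadjusted p was 0.0643 for AOX1D and higher for the other 3.

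NDA1 had the largest change of the 6 tested genes. Its signals were 2099, 1695 and 1479 on mutant replicates 1, 2 and 3, and 807, 386 and 406 on wild-type replicates 1, 2 and 3. The groups did not overlap, and the wild-type array nearest to the mutant was replicate 1. The mean rose from 533 ± 238 in wild type to 1758 ± 315 in the mutant (SD, n = 3). On the log2 scale the rise was 1.79 (SE 0.24, adjusted p = 0.000112), or 3.46-fold with a 95% interval of 2.43 to 4.94. It ranked 134th from the top of the 13626 tested log2 fold changes, so 0.983% of them were as high or higher. The call held when any array was left out, with log2 fold changes from 1.60 to 2.13 (adjusted p at most 0.00114), and ended in an unmoderated test (adjusted p = 0.0592). In the authors' deposited table NDA1 had a ratio of 3.30 and an unadjusted p of 0.00577, where 22.2% of all non-control probe sets had a deposited p under 0.05.

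NDA2, the closest relative of NDA1 and like it an enzyme of the matrix side, read 203, 235 and 292 in the mutant and 263, 166 and 295 in wild type. The groups overlapped fully, with means of 243 ± 45.3 and 241 ± 66.9 (SD, n = 3). The log2 fold change was 0.04 with a 95% interval of -0.51 to 0.59 (adjusted p = 0.927), which spans folds from 0.702 to 1.51. To compare the responses of both genes, a comparison that was not planned, NDA2 was subtracted from NDA1 on the log2 scale within each array. That difference ran from 2.34 to 3.37 on mutant arrays and from 0.46 to 1.62 on wild-type arrays, and did not overlap. The change of NDA1 exceeded that of NDA2 by 1.75 on the log2 scale (two-sided exact permutation p = 0.1, the smallest that 3 against 3 arrays can give).

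NDB2, a dehydrogenase of the outer face that is often induced together with AOX1A, read 441, 411 and 491 in the mutant and 337, 375 and 261 in wild type. Each mutant array read above each wild-type array, although the gap between mutant replicate 2 and wild-type replicate 2 was small. Means were 448 ± 40.2 and 325 ± 58.0 (SD, n = 3). The log2 fold change of 0.48 (SE 0.19), or 1.39-fold with a 95% interval of 1.05 to 1.84, did not pass the test (adjusted p = 0.0720). Leaving out an array did not bring it past the threshold, with adjusted p from 0.0619 to 0.211. The authors' deposited table gave NDB2 a ratio of 1.38 and an unadjusted p of 0.0389.

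UCP1, the mitochondrial uncoupling protein gene, had steady signals. They were 1552, 1653 and 1532 in the mutant and 1428, 1707 and 1793 in wild type. The wild-type arrays lay on both sides of the mutant arrays. UCP1 had a log2 fold change of -0.05 (SE 0.13), with a 95% interval of -0.34 to 0.23 (adjusted p = 0.812), which spans folds from 0.792 to 1.18.

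PTOX, the plastid oxidase gene, read 622, 811 and 1132 in the mutant and 704, 700 and 522 in wild type. Mutant replicate 1 lay below wild-type replicates 1 and 2, so the groups overlapped, and mutant replicate 3 stood highest. Its log2 fold change was 0.38 (SE 0.21), with a 95% interval of -0.06 to 0.83 (adjusted p = 0.185). It depended on single arrays: 0.59 without mutant replicate 1 (adjusted p = 0.0534), 0.16 without mutant replicate 3 (adjusted p = 0.595) and 0.24 without wild-type replicate 3 (adjusted p = 0.451).

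**Figure D2:**
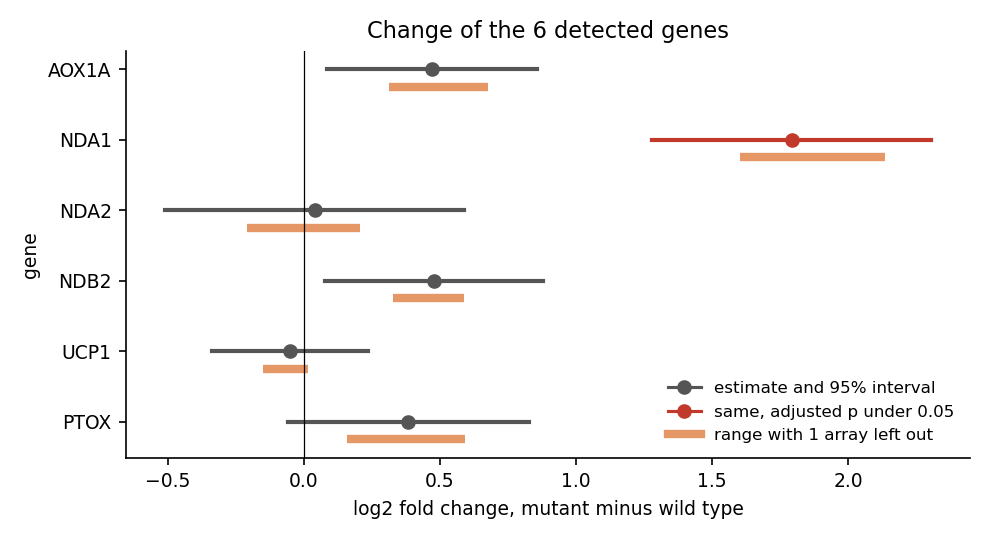
Log2 fold change (mutant minus wild type) of the 6 detected bypass genes, with the 95% interval from limma as a line and, below it, the range of the estimate when 1 of the 6 arrays is left out. NDA1 stands at 1.79 with an interval from 1.28 to 2.31, and the other 5 lie between -0.05 and 0.48.

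The genes also differed in how much they varied within a group. Across all tested probe sets the median SD of log2 signals within a group was 0.18 in the mutant and 0.20 in wild type. UCP1 had 0.059 and 0.17. For NDA1 the mutant had 0.25 and the wild type 0.59, and for AOX1A 0.22 and 0.37, with wild-type replicate 1 high for both genes. PTOX was more variable in the mutant, with 0.43 against 0.25 in wild type, whereas NDA2 had 0.26 and 0.44.

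**Figure D3:**
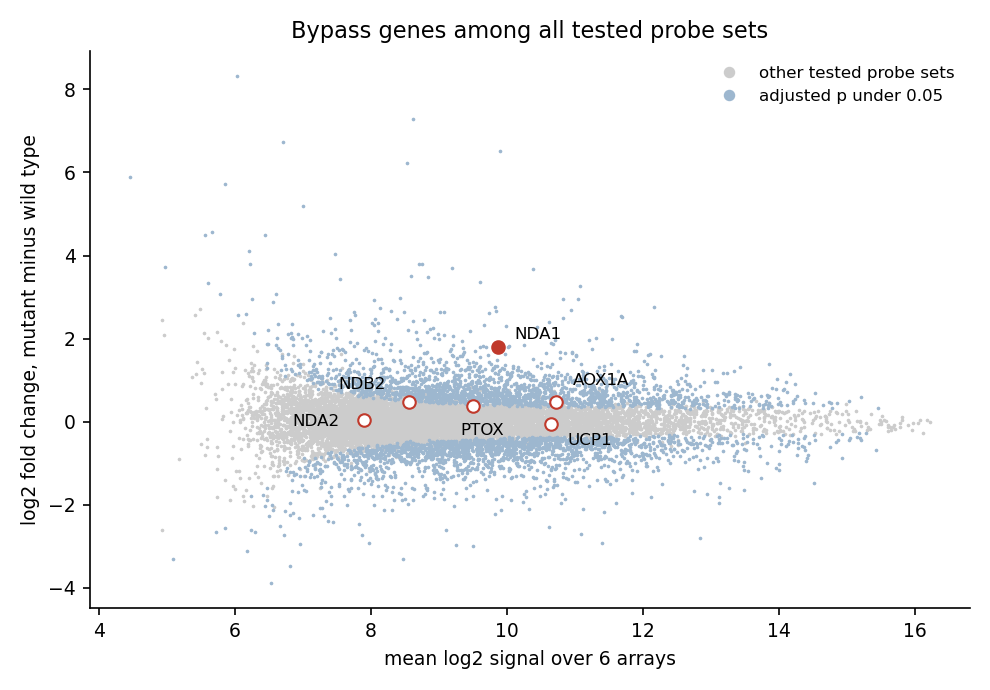
Log2 fold change (mutant minus wild type) against the mean log2 signal of the 6 arrays for 13626 tested probe sets; pale blue points had an adjusted p under 0.05, and the 6 detected bypass genes are ringed, with NDA1 filled because it passed the test. NDA1 stands 134th from the top at 1.79, and AOX1A, NDB2 and PTOX lie between 0.38 and 0.48.

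Genes whose signals followed those of AOX1A and NDA1 most closely over the 6 arrays were looked up among 11477 other probe sets Present on all arrays. For AOX1A they were CRR2, a pentatricopeptide repeat gene (Pearson r = 0.990), NDL2 of the Ndr family (0.989) and AT3G11560 (0.986), and none of these passed the test between genotypes. For NDA1, looked up after its values were seen, they were the basic helix-loop-helix gene bHLH34 (0.999), PDE149, a TerC family membrane protein gene (0.998), and GLDP2, a glycine decarboxylase gene (0.995). Those 3 had log2 fold changes of 0.82, 0.61 and 1.25. A gene chosen for following NDA1 over both groups shares its rise, so these are not separate results. A coefficient above 0.95 was reached by 27 probe sets for AOX1A and by 383 for NDA1. These coefficients describe 6 arrays that share the difference between groups and runs.

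Among the other type II dehydrogenase genes, NDC1, whose enzyme is found in plastids as well and reduces plastoquinone there, rose. It read 1307, 1339 and 1151 in the mutant and 1010, 947 and 803 in wild type, with no overlap. The rise was 0.46 on the log2 scale (SE 0.14, adjusted p = 0.0263). NDB1 did not pass (0.08, adjusted p = 0.741), and NDB3 and NDB4 had no Present call, so 1 of 2 tested genes rose and none fell (14.4% and 13.9% of all tested probe sets). NDC1 no longer passed with mutant replicate 1 or 2 left out (adjusted p = 0.0779 and 0.106), or with wild-type replicate 2 or 3 left out (0.0567 and 0.0876).

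Of 4 tested carriers related to UCP1, 2 rose and none fell (all tested: 14.4% and 13.9%), and the list's median log2 fold change was 0.46. Both encode dicarboxylate carriers of the inner mitochondrial membrane. DIC2 read 860, 929 and 669 in the mutant and 307, 229 and 557 in wild type (adjusted p = 0.00289), a log2 change of 1.26 (SE 0.26). DIC1, also listed as UCP5, rose from 780 ± 268 to 1292 ± 196 (adjusted p = 0.0138), a log2 change of 0.77 (SE 0.21). In both genes wild-type replicate 3 was the wild-type array nearest to the mutant. UCP2 and UCP3 did not pass, with 0.15 (adjusted p = 0.523) and -0.19 (adjusted p = 0.400). DIC1 no longer passed with mutant replicate 1 left out (adjusted p = 0.0647), nor with wild-type replicate 2 left out (0.0693).

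Enzymes other than the type II dehydrogenases also feed electrons into the respiratory chain. Of 10 such genes, listed as other ubiquinone-reducing enzymes, 1 rose and 2 fell, near the 28.4% called over all tested probe sets (median log2 fold change -0.28). IVD, the isovaleryl-CoA dehydrogenase gene of branched-chain amino acid breakdown, fell from 1711 ± 142 to 675 ± 83.4 (adjusted p = 2.15e-05), a log2 change of -1.35 (SE 0.15). ETFbeta, a subunit gene of the electron transfer flavoprotein that accepts electrons from IVD, fell from 907 ± 129 to 499 ± 88.8 (adjusted p = 0.00193), a log2 change of -0.87. PRODH1, a proline dehydrogenase gene, rose from 3709 ± 780 to 5088 ± 444 (adjusted p = 0.0280), a log2 change of 0.47. GLDH, of the last step of ascorbate synthesis, had 0.42 (adjusted p = 0.0562). The list also counts genes whose proteins do not themselves reduce ubiquinone, GLDH, IVD and ETFbeta among them. PRODH1 no longer passed with mutant replicate 2 or 3 left out (adjusted p = 0.0887 and 0.0938), or with wild-type replicate 1 or 2 left out (0.0992 and 0.0779).

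The cytochrome route is the branch that the alternative oxidase leaves out. Of 27 tested genes for complex III, cytochrome c, cytochrome c oxidase and its assembly factors, 1 rose and 2 fell, where 14.4% and 13.9% of all tested probe sets did; that difference was not tested. The median log2 fold change was -0.12. COX5B1 (AT3G15640), a cytochrome c oxidase subunit gene, fell from 1381 ± 136 to 755 ± 150 (adjusted p = 0.00113), a log2 change of -0.88 (SE 0.16). COX6A (AT4G37830), another subunit gene, fell by 0.41 on the log2 scale (adjusted p = 0.0246). AT5G05370, a gene for a ubiquinone-binding protein of complex III named QCR8_2 here, rose by 0.50 on the log2 scale (adjusted p = 0.0158), and the oxidase subunit gene COX5C3 had 0.47 (adjusted p = 0.0615). COX6A did not pass once replicate 2 of either the mutant (adjusted p = 0.144) or the wild type (0.0826) was left out, nor AT5G05370 without mutant replicate 3 (0.0623), while COX5C3 passed without mutant replicate 3 (adjusted p = 0.0309). With wild-type replicate 3 left out 4 genes of the route fell, and with wild-type replicate 2 left out 1 did.

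Of 10 tested regulators of AOX1A, 2 rose and 3 fell, against 14.4% and 13.9% of all tested probe sets, with a median log2 fold change of 0.02. WRKY40, a known repressor of AOX1A, rose from 515 ± 153 to 1096 ± 87.9 (adjusted p = 0.000650), a log2 change of 1.13 (SE 0.19). WRKY57 (named outside the rule for list genes) had 0.93 (adjusted p = 0.0123). WRKY15 fell by 0.68 (adjusted p = 0.00260) and KIN10, a catalytic subunit gene of the energy-sensing kinase SnRK1, by 0.74 (adjusted p = 0.00759). RCD1, whose protein binds and holds back NAC factors that induce AOX1A, fell from 2825 ± 333 to 1847 ± 148 (adjusted p = 0.00363), a log2 change of -0.61 (SE 0.13).

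The transcription factor gene ANAC017, an activator that is released from membranes under mitochondrial stress, was among the 5 regulators that did not pass (0.17, adjusted p = 0.487; chosen after its value was seen). ANAC013, of the same group, was Present on a single mutant array and was not tested. ANAC016 and ABI4, a repressor of AOX1A, had no Present call. WRKY57 no longer passed with mutant replicate 3 left out (adjusted p = 0.0507), nor with wild-type replicate 2 left out (0.0531).

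Another list held genes linked to the mitochondrial dysfunction response, in which AOX1A is induced. Not every gene listed is known to be induced itself. Of 11 tested, 2 rose and 1 fell, near the 28.4% called over all tested probe sets, and the median log2 fold change was 0.30. UGT74E2, a glucosyltransferase gene, read 328, 252 and 254 in the mutant and 37.9, 5.85 and 36.2 in wild type (adjusted p = 0.000977). Its floored estimate was 8.35-fold higher. HSP23.5, a mitochondrial small heat shock protein gene, read 136, 199 and 202 against 34.6, 11.7 and 61.3 (adjusted p = 0.00710), with a floored estimate of 4.61-fold. Neither had a Present call in wild type, so both entered the test through the mutant arrays alone. Their wild-type signals are only bounds, and the 2 rises in the count carry that limit. The at-least values set the mean log2 signal of the mutant against a wild-type mean in which each array counts with the higher of its own signal and its lowest Present signal.

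AT12CYS1 (AT5G64400) fell by 0.51 (adjusted p = 0.0437), and its relative AT12CYS2 (AT5G09570) had -0.83 (adjusted p = 0.0509). The AT12CYS1 call ended when any array other than mutant replicate 3 was left out (adjusted p from 0.0666 to 0.198), whereas AT12CYS2 passed without wild-type replicate 1 (adjusted p = 0.0202). OM66, an outer membrane ATPase gene and a common marker of this response, was Present on 2 mutant arrays and 1 wild-type array and had 1.05 (adjusted p = 0.101; named outside the rule). It passed without mutant replicate 1 (1.46, adjusted p = 0.0359).

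Genes of plastoquinone synthesis, of carotenoid desaturation, which PTOX serves, and of cyclic electron flow were listed as partners of PTOX. Of 8 tested, 5 rose and none fell, against 14.4% and 13.9% of all tested probe sets, and the median log2 fold change was 0.48. SPS2, a solanesyl diphosphate synthase gene that makes the side chain of plastoquinone, read 1511, 1453 and 1366 in the mutant and 649, 351 and 317 in wild type (adjusted p = 6.25e-05), a log2 change of 1.79 (SE 0.22). SPS1 rose from 313 ± 60.0 to 499 ± 77.5 (adjusted p = 0.0179), a log2 change of 0.68. PGRL1A, of cyclic electron flow around photosystem I, rose from 11637 ± 2396 to 20379 ± 2470 (adjusted p = 0.000831), a log2 change of 0.82. The partners that did not pass, named outside the rule, had negative changes. These were -0.25 for HPD, -0.25 for PGR5 and -0.17 for PGRL1B (adjusted p = 0.154, 0.146 and 0.532).

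The carotene desaturase genes ZDS and PDS3, the latter named outside the rule, rose by 0.44 and 0.52 on the log2 scale (adjusted p = 0.0189 and 0.0245). Of these 5 calls, those of SPS2 and PGRL1A held without any single array. Without wild-type replicate 2 the calls of SPS1, ZDS and PDS3 all ended (adjusted p = 0.0713, 0.0704 and 0.0666). The same 3 ended without mutant replicate 1 (adjusted p = 0.0504, 0.0662 and 0.0961). Those of ZDS and PDS3 ended without mutant replicate 2 (adjusted p = 0.0936 and 0.0618), that of SPS1 without mutant replicate 3 (adjusted p = 0.0754) and that of PDS3 without wild-type replicate 3 (adjusted p = 0.0947).

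**Figure D4:**
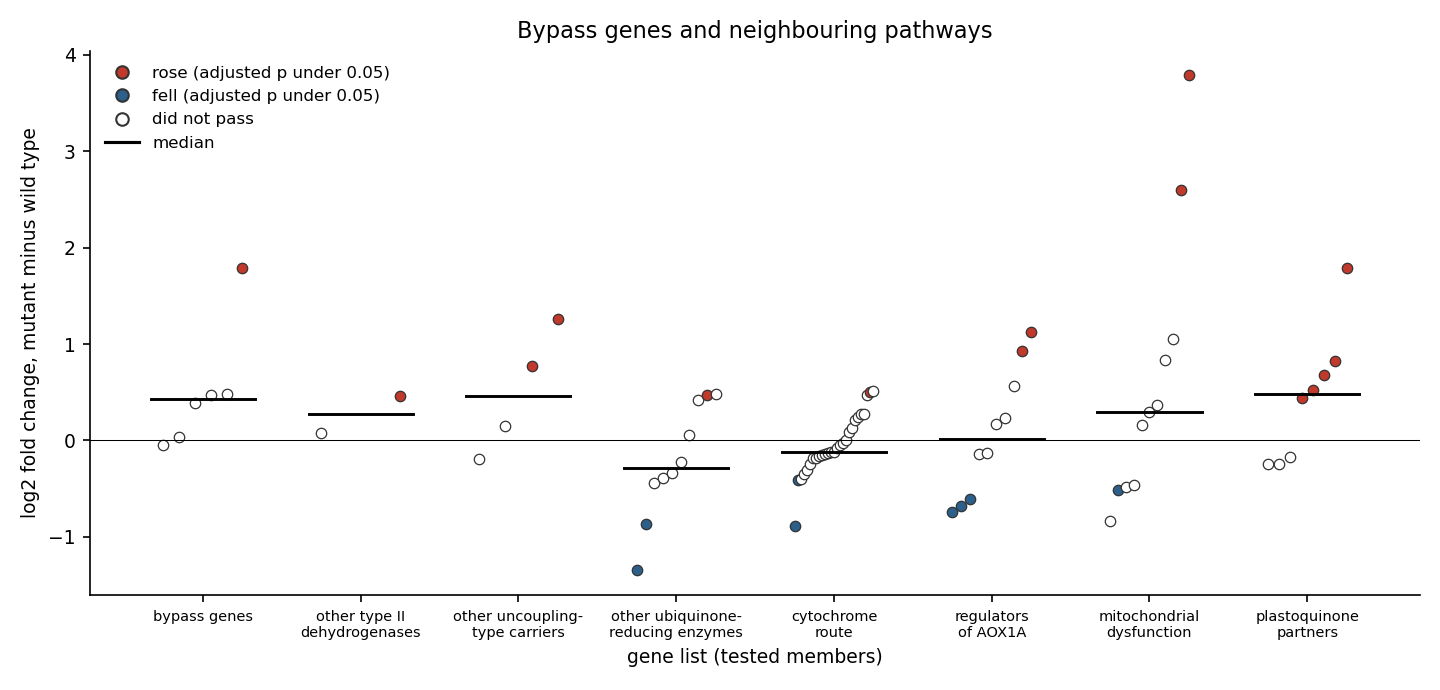
Log2 fold change (mutant minus wild type) of each tested gene in the bypass group and in 7 neighbouring lists; red points rose and blue points fell at an adjusted p under 0.05, open points did not pass, and bars are medians. NDA1 at 1.79 is the highest bypass gene, 5 of 8 plastoquinone partners rose, and 24 of 27 cytochrome route genes did not pass.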

How the data were processed

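Signals are MAS5 intensities, per the file headers and the submitters' processing notes, and the authors gave every array the same mean. The value table of the series matrix held the same intensities. The authors deposited detection calls, a ratio of group means and an unadjusted p-value, which equals an equal-variance test on linear signals. The sources used here give no MAS5 settings and no genome build, so no coordinates are printed. Symbols came from RefSeq (TAIR10.1), where all 10 loci matched.

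Log2 signals, with no offset, entered limma 3.58.1 under R 4.3.3 (lmFit; eBayes, trended on intensity), two-sided, over 13626 probe sets, with SD and n = 3 per group. The code was tested on simulated data. The number of arrays limits precision: the median SE was 0.18. An exact permutation test of 3 against 3 cannot go below p = 0.1. Members and lists were chosen with earlier results of these data known. Named list genes are up to 4 tested members with the smallest adjusted p, and for AOX1A the 3 genes with the most similar signals; exceptions are marked. Replicates are numbered 1 to 3 in both groups; deviations of same-numbered arrays correlated at 0.02 to 0.03, so the numbers were not treated as pairs. The alternatives were 15 other settings.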

Additional observations from a re-analysis of the deposited data

How the results depend on the processing

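The log2 fold changes and the counts of calls were recomputed under 15 alternatives: 6 left out an array, and the other 9 changed the filter, normalization, values, offset, variance model, weights or pairing. NDA1 kept its direction in all of them and its call in all but the unmoderated test (1.79, adjusted p = 0.0592); NDB2 and PTOX kept their direction and did not pass in any. AOX1A passed with array weights (0.51), with the replicate block (0.47, adjusted p = 0.0233) and without wild-type replicate 1; with an array left out it ranged from 0.31 to 0.68. NDA2 and UCP1 changed sign with an array left out, over ranges of -0.21 to 0.21 and -0.15 to 0.016. The number of bypass genes that rose was 1, but 0 in the unmoderated test, 2 with array weights, 2 with the replicate block, and 1 to 2 with an array left out. None fell under any setting. The excess of the NDA1 change over the NDA2 change, recomputed by choice made after seeing the data, ran from 1.43 to 2.01. Undetected genes, list medians, counts of groups that do not overlap and the correlations with AOX1A and NDA1 were not recomputed. UGT74E2, HSP23.5, SPS1 and OM66 have no value where a Present call on all 6 arrays was required. No recomputed values are given for HPD, PGR5 and PGRL1B.

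Over all tested probe sets the unmoderated test called 797 upward and 783 downward, and fits without an array 1341 to 1901 and 1338 to 1737. With the replicate block 1919 rose and 1818 fell, and OM66 passed (adjusted p = 0.0495). Once group means were subtracted, each array's deviations correlated most, among arrays of the other group, with those of the same number, but only at 0.02 to 0.03, a hint from the data and not the design.

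Rising genes of the lists changed as follows. Without the intensity trend they were 0 for other type II dehydrogenases, 1 for carriers, 0 for other ubiquinone-reducing enzymes and 3 for plastoquinone partners. The unmoderated test left 1 plastoquinone partner and 0 in each other list that had any. Array weights gave 2 for the cytochrome route. Requiring a Present call on every array left 0 rising among the mitochondrial dysfunction genes, since both that rose were not Present in wild type. With an array left out the counts ran from 0 to 1 for type II dehydrogenases, 1 to 2 for carriers, 0 to 2 for ubiquinone-reducing enzymes, 1 to 2 for AOX1A regulators and 2 to 5 for plastoquinone partners.

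Falling genes of the cytochrome route were 1 with no detection filter, 1 without the trend, 0 in the unmoderated test and 1 to 4 with an array left out. The unmoderated test left 1 falling gene in the list of ubiquinone-reducing enzymes and 1 falling AOX1A regulator. Falling mitochondrial dysfunction genes were 0 with no filter, without the trend and in the unmoderated test, 2 with Present on all 6 arrays, quantile normalization, the offset of 32, array weights or the replicate block, and 0 to 2 with an array left out. Of 22 called list genes named above, 10 lost the call in some fit with an array left out. The causes of these changes were not tested. The 4 undetected oxidase genes are limited by signal over background. The series matrix gave identical values.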
